A study of Homo sapiens with 33 samples.

Results

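The 31 genes described here encode the enzymes that build cholesterol and fatty acids, their main regulators and a sterol carrier. They were chosen by symbol among the 56470 gene symbols of the count table, and all 31 were found. No measured value served as a filter, but earlier results of these data were known when they were chosen. By role they comprise 7 genes of the mevalonate steps, 11 of the squalene and sterol steps, 4 regulators or transport proteins and 9 genes of fatty acid synthesis and activation. The counts come from bulk poly(A) RNA sequencing of 3 head and neck squamous cell carcinoma (HNSCC) cell lines, SCC1, SCC6 and SCC25, which are sensitive to cetuximab, an antibody that blocks the epidermal growth factor receptor (EGFR). Each line received PBS (untreated control) or 100 nM cetuximab, and 1 library was made per line, treatment and day, for days 0 to 5 of PBS and days 1 to 5 of cetuximab, 33 in all. Treated SCC6 departs from this, as its labels list no day 1 and 2 libraries of day 2, which are named 2a and 2b by column order. The 5 libraries of days 1 to 5 in each group stand in for replicates. Since nothing states that they came from separate cultures, p-values measure only the spread between these libraries, days included.

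According to the labels, SCC1 and SCC25 grew in DMEM with serum and hydrocortisone and SCC6 in high-glucose DMEM with non-essential amino acids, whereas the study's methods give a single medium for the 3 lines. By the labels, then, SCC1 and SCC25 differed in medium by their hydrocortisone concentration, and in comparisons of SCC6 with either of them line and medium cannot be told apart. Sequencing flow cell, given in the labels and lettered A to E here, also follows the groups in part. In SCC1, 4 of the 5 PBS libraries were on flow cell B and all 5 cetuximab libraries on C. In SCC25, the 5 PBS libraries and 2 of the cetuximab libraries were on A, and the other 3 on B. In SCC6, 4 PBS and 3 cetuximab libraries shared flow cell D.

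Cholesterol is built from acetyl-CoA through mevalonate, squalene and lanosterol, and fatty acids from acetyl-CoA through malonyl-CoA and palmitate, which is then elongated and desaturated. Both routes are switched on by the sterol regulatory element-binding proteins (SREBPs), transcription factors made as membrane proteins from SREBF1 and SREBF2 and released by cleavage when sterols run low. INSIG1 holds them back in the endoplasmic reticulum and is itself one of their targets. In other tumour cells, EGFR signalling through PI3K and AKT is known to raise SREBP cleavage.

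Total counts per library ran from 28508758 to 80727478, and every one of the 31 genes passed the filter on low counts in each comparison. Of 9 genes of ERK output, which EGFR blockade lowers, 8 fell in SCC1, 8 in SCC6 and 9 in SCC25. DUSP6, a phosphatase induced by ERK, fell by 3.19, 1.99 and 1.22 on the log2 scale. Levels are given as CPM, counts per 1e+06 counts of the library after TMM scaling. Of the squamous keratins, KRT5 and KRT14 were near absent in SCC6, at 1.76 to 3.21 CPM and 1.84 to 6.54 CPM with PBS, while KRT17 (385 to 842 CPM) and the cadherin CDH1 (553 to 895 CPM) were high there. Summed over 10 squamous markers, SCC1 held 1958 to 3231 CPM with PBS and 7071 to 12157 CPM with cetuximab, of which 8 markers rose and 1 fell. In SCC6 3 rose and 3 fell, and in SCC25 2 rose and 1 fell. Of 9 fibroblast markers, those tested rose in SCC1 (5 of 5) and SCC6 (2 of 3), and in SCC25 5 of 9 rose and 1 fell. They summed to 51.9 to 72.8 CPM with PBS against 96.2 to 221 CPM with cetuximab in SCC1, 3.40 to 5.28 against 9.96 to 115 in SCC6 and 180.0 to 229.7 against 292 to 459 in SCC25. Of 5 leukocyte markers only CD68 exceeded 1 CPM, and it fell in all 3 lines. The 5 adipocyte markers stayed under 1 CPM in sum in every group, and of 4 endothelial markers none was called. The counts of ERK and marker genes are to be read against the shares of all genes called, which are given with the cetuximab results below. The part of these marker changes in the results for lipid genes was not tested. In bulk RNA, fewer cells of a subclone and less RNA per cell cannot be told apart.

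The stretches upstream of 6 members are printed here because their genes carry the results that follow. They are SREBF2 and INSIG1 for the regulators, LSS, HMGCS1 and MVK for enzymes that rose in both SCC1 and SCC6, and ELOVL6 for the gene that fell in all 3 lines. The sequences are from RefSeq on GRCh38.p14, run 5′ to 3′ on the gene's strand and end at the base before the start site. Capitals mark 3 motifs found on either strand, namely TCACNCCAC (the core of a sterol regulatory element), CCAAT (the box bound by NF-Y, a partner of SREBPs) and CACGTG (an E-box).
SREBF2, chr22:41832855-41833104 on the plus strand: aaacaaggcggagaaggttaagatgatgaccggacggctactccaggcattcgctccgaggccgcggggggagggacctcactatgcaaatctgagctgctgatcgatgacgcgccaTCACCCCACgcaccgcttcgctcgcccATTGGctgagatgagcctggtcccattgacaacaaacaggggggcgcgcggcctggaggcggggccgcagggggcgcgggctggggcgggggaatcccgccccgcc
INSIG1, chr7:155297628-155297877 on the plus strand: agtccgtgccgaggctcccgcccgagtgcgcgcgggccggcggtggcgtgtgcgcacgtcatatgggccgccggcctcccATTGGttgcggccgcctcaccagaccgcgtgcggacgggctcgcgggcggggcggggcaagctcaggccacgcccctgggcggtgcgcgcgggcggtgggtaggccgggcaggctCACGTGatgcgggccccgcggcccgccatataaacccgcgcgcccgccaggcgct
LSS, chr21:46228775-46229024 on the minus strand: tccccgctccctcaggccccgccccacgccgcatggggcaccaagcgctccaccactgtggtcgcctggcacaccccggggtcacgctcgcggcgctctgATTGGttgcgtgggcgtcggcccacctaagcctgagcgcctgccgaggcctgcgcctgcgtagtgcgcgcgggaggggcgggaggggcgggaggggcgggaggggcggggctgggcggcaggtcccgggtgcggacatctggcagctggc
HMGCS1, chr5:43313413-43313662 on the minus strand: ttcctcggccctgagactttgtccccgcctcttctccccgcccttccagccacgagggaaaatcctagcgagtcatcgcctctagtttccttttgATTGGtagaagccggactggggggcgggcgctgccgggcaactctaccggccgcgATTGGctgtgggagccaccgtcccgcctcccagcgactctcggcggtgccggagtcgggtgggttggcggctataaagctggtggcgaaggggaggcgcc
MVK, chr12:109573544-109573793 on the plus strand: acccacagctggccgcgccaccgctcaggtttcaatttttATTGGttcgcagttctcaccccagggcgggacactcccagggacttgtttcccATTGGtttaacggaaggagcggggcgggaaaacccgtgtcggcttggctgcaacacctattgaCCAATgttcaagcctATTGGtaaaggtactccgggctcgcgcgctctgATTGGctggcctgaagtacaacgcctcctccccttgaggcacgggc
ELOVL6, chr4:110198616-110198865 on the minus strand: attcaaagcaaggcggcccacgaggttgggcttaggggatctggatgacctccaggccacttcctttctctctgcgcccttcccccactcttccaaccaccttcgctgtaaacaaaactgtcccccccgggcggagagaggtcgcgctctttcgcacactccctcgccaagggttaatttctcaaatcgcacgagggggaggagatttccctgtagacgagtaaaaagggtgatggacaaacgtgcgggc

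SREBF2 held the sterol element at base -133 from the start site and a reversed CCAAT box at -106. The MVK stretch carried 5 CCAAT boxes, that of HMGCS1 2 (its other listed window held none) and those of INSIG1 and LSS 1 each, while ELOVL6 held none of the 3 motifs. INSIG1 also held an E-box at -55, and LSS an E-box at 41 bases past its start site, outside the printed stretch. Windows of 300 bases, from 250 before to 50 after the start site, were listed for 27 of the 31 members, all but ACAT2, FDFT1, SQLE and FASN. A CCAAT box lay in the windows of 21 of these 27 genes (77.8%), against 39.7% of all 27305 genes with windows. The members without one were CYP51A1, ELOVL6, FADS1, LPIN1, PMVK and SREBF1. The sterol element was found for 1 of 27 members (3.7%) and 1.39% of all genes, and the E-box for 3 (11.1%), INSIG1, LSS and SC5D, and 8.78%. A match describes the letters only, and these motifs do not overlap in the printed stretches.

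Without drug, the RNA levels of these genes differed between the 3 lines. Per kilobase of transcript, SQLE (squalene epoxidase, a rate-limiting step of cholesterol synthesis) was the highest of the 31 genes in SCC6 at 157 ± 14.5 CPM per kb (SD, n = 5). ACLY, which makes cytosolic acetyl-CoA from citrate, was the highest in SCC1 at 109 ± 11.1, and DHCR7, which catalyses a last step to cholesterol, in SCC25 at 56.8 ± 2.00. The lowest were TM7SF2 (a sterol reductase) in SCC1 and SCC25, at 1.95 ± 0.263 and 1.25 ± 0.344, and the desaturase FADS2 in SCC6, at 2.07 ± 0.379 CPM per kb.

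**Figure D1:**
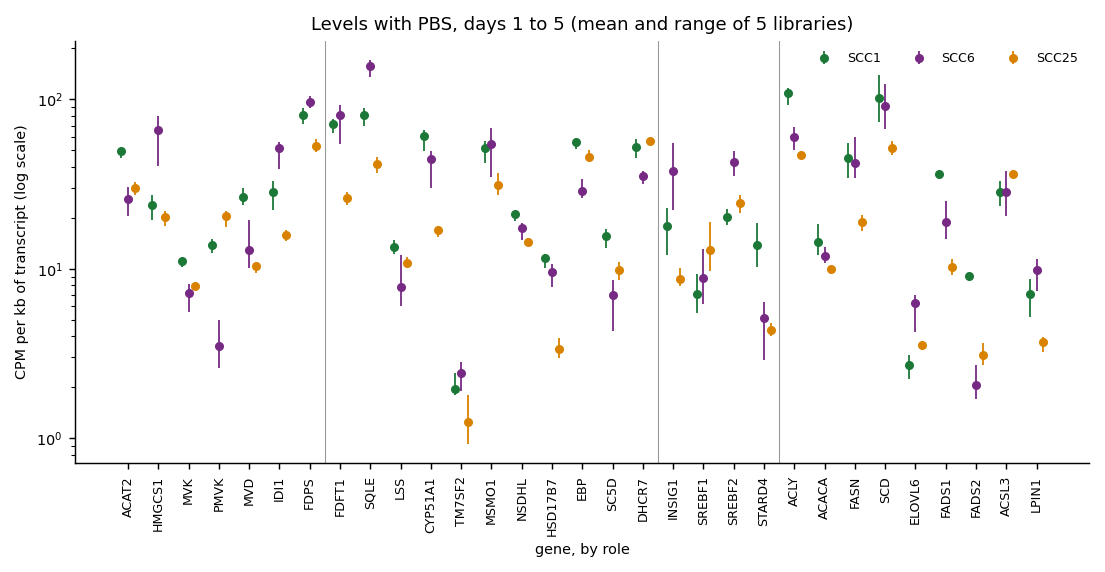
Levels of the 31 genes with PBS in CPM per kilobase of transcript (log axis), as the mean and the range of the 5 libraries of days 1 to 5 in SCC1, SCC6 and SCC25. SQLE stands highest in SCC6 and PMVK and FADS2 sit lower in SCC6 than in SCC1, while 19 genes are lowest in SCC25.

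Between SCC1 and SCC6, 23 of 31 members differed at an adjusted p under 0.05 (15 higher in SCC1), against 66.6% of all 21414 genes tested. Between SCC1 and SCC25, 29 differed (24 higher in SCC1, background 66.5%), and between SCC6 and SCC25, 26 (19 higher in SCC6, background 69.9%). The median log2 difference over the members was 0.24, 0.72 and 0.82 in these 3 pairs, against 0.0066, -0.012 and -0.035 over all genes. Most members were thus lower in SCC25 than in SCC1 or SCC6.

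PMVK, the kinase that follows MVK, had the widest gap, at 13.9 ± 1.02 CPM in SCC1, 3.53 ± 0.875 in SCC6 and 20.5 ± 1.84 in SCC25 (SD, n = 5). It was 5.69-fold lower in SCC6 than in SCC25 (log2 difference -2.51 ± 0.13, SE). SCC6 held the highest levels of HMGCS1 (HMG-CoA synthase) at 352 ± 86.2 CPM, against 128 ± 15.9 in SCC1 and 109 ± 8.03 in SCC25. The same order held for INSIG1, at 110.1 ± 36.3, 51.8 ± 11.1 and 25.3 ± 2.38 CPM, and for SQLE, at 464 ± 43.0, 239 ± 22.8 and 124 ± 10.5 CPM. SREBF2 was also highest in SCC6, at 223 ± 26.3 CPM against 106 ± 9.86 in SCC1 and 129 ± 11.5 in SCC25.

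SCC1, in turn, was highest in both desaturases of polyunsaturated fatty acids. FADS2 stood at 27.9 ± 1.11 CPM in SCC1, 6.39 ± 1.17 in SCC6 and 9.57 ± 1.04 in SCC25, and FADS1 at 159 ± 9.30, 82.2 ± 18.0 and 44.7 ± 4.09. STARD4, a cytosolic sterol carrier, followed with 64.4 ± 14.6, 23.8 ± 6.54 and 20.1 ± 1.48 CPM. SCC25 held the least CYP51A1 (lanosterol demethylase), 53.3 ± 3.00 CPM against 192 ± 20.3 in SCC1, and the least HSD17B7 (a sterol ketoreductase), 5.12 ± 0.591 against 17.6 ± 1.26 CPM. FDPS, CYP51A1 and HSD17B7 have pseudogenes listed in the same table, so the split of shared reads leaves their levels less certain. With flow cell as a covariate, the calls between lines were 19, 25 and 18, for which the share of all genes is not given here.

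With cetuximab, genes of both routes rose in SCC1 and SCC6, and by edgeR's test without a block none of the 31 rose in SCC25. In SCC1, 11 of 31 members rose (35.5%, against 22.7% of all 17984 genes tested) and 1 fell (3.23%, against 22.1%). In SCC6, 13 rose (41.9%, against 15.6% of 17387) and 2 fell (6.45%, against 14.6%). In SCC25, 0 rose (against 8.8% of 19101) and 6 fell (19.4%, against 9.5%). In that line 10 members had an unadjusted p under 0.05, and DESeq2 called 8, among them FADS2 (0.32) and ACSL3 (0.16) as higher, which edgeR's first fit did not call. Other edgeR fits without the block did call ACSL3, with day 0 added to PBS. FADS2 was called with the GC trend removed, and without PBS of day 5 or cetuximab of day 3. Median log2 fold changes over the members were 0.12, 0.33 and -0.061, against 0.021, 0.0039 and 0.0062 over all genes.

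Over the lines, ELOVL6 was called in all 3, and 8 genes were called in 2 of them, namely HMGCS1, MVK, SQLE, LSS, DHCR7, INSIG1, SREBF2 and SCD. Another 14 were called in 1 line. The remaining 8, PMVK, IDI1, FDFT1, CYP51A1, NSDHL, HSD17B7, EBP and SREBF1, passed edgeR's test without covariates in no line.

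**Figure D2:**
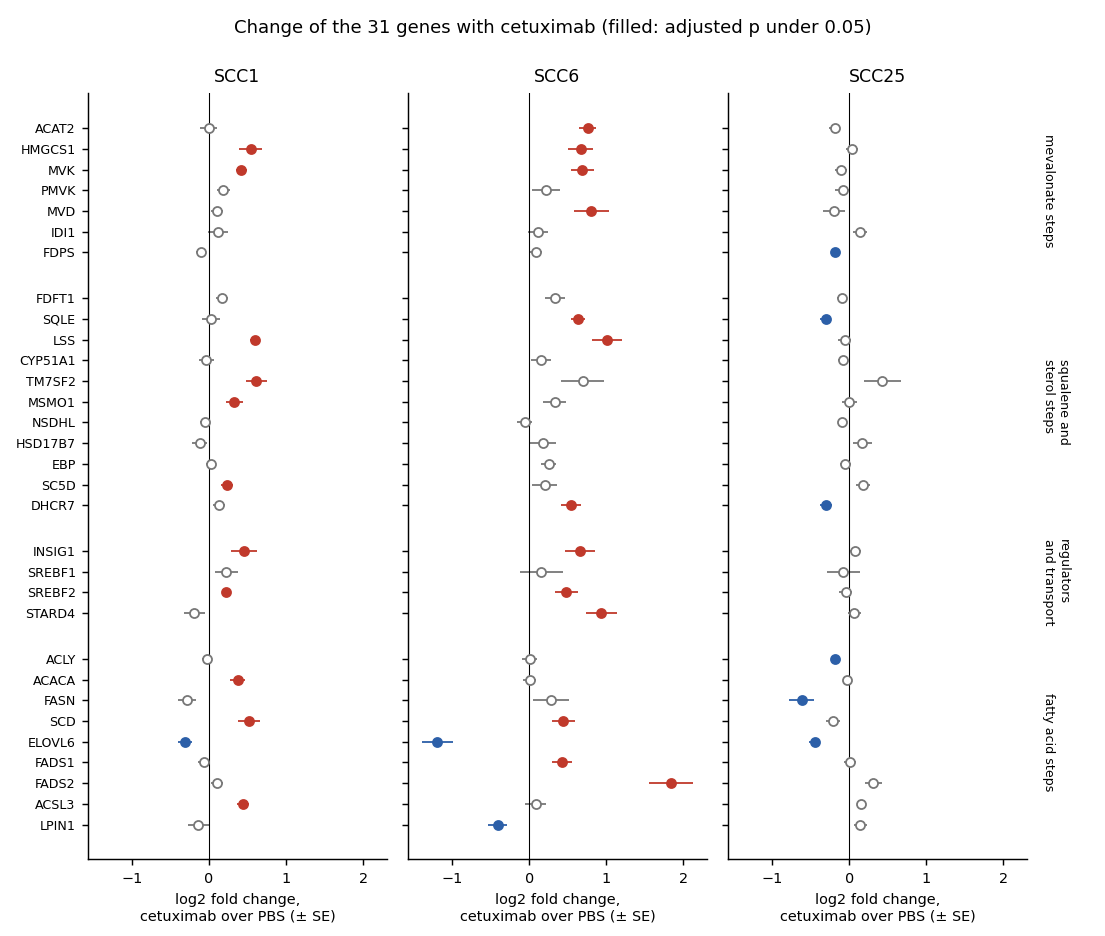
Log2 fold change with cetuximab over PBS, days 1 to 5, for the 31 genes by role in SCC1, SCC6 and SCC25, with bars of 1 SE from edgeR's fit. Filled points have an adjusted p under 0.05 (red higher, blue lower) and open points do not. ELOVL6 is blue in every panel, and SQLE and DHCR7 are red in SCC6 and blue in SCC25.

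Flow cell was taken as a covariate or held fixed by keeping the libraries of 1 flow cell. In SCC1 both fits rest on the PBS library of day 5, the only one of that group on flow cell C. Among PBS libraries of days 1 to 5 it was the highest for STARD4 (85.8 CPM) and ELOVL6 (20.3 CPM). In SCC25 both rest on the cetuximab libraries of days 1 and 2, the only treated ones on flow cell A. In SCC1, with flow cell as a covariate, 4 members were called: MVK, LSS and ELOVL6 as before, and STARD4, which fell (-0.61). Within flow cell C, with 1 PBS library, 3 were called, LSS, ELOVL6 and STARD4. In SCC6 14 were called with the covariate, of which 12 were among the 15, and SREBF2, SCD and FADS1 were lost. Within flow cell D the count was also 14, with the same genes lost. In SCC25 the covariate left 1, ELOVL6, and within flow cell A 3 were called, DHCR7, FASN and ELOVL6. Shares of all genes are not given here for these fits, so the calls lost need not be particular to the members.

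Labelled day pairs the libraries, and a fit with day as a block called 14 members in SCC1, 20 in SCC6 and 9 in SCC25. The share of all genes called by this fit is not given here, so these counts have no background beside them. SREBF1 was among those gained in SCC1 (0.23, adjusted p = 0.0155) and SCC6 (0.36, adjusted p = 0.0395), both by edgeR's test. FASN was gained lower in SCC1 (-0.28, adjusted p = 0.0251) and higher in SCC6 (0.44, adjusted p = 0.0480), where it was called lower once the GC trend was removed as well (-0.15). FDFT1, TM7SF2 and EBP were further gained in SCC6, and ACAT2 (lower), FADS2 and ACSL3 (both higher) in SCC25. Under every alternative that was run, the calls that held were LSS and ELOVL6 in SCC1, ELOVL6 in SCC25, and ACAT2, HMGCS1, MVK, SQLE, LSS, DHCR7, STARD4, ELOVL6 and FADS2 in SCC6.

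ELOVL6, the elongase that extends palmitate and related chains, fell in every line. In SCC6 it stood at 27.9, 45.4, 45.1, 46.0 and 43.0 CPM with PBS on days 1 to 5 and at 26.4, 21.4, 16.1, 15.6 and 13.3 CPM in cetuximab libraries 2a, 2b and of days 3, 4 and 5. The groups did not overlap, although the PBS library of day 1 came close to 2a (log2 fold change -1.19, SE 0.20, adjusted p = 0.00121, edgeR). That PBS library and the one of day 0, at 22.8 CPM, were on another flow cell than the later PBS libraries.

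In SCC25 ELOVL6 measured 24.4, 23.5, 21.7, 24.6 and 21.8 CPM with PBS and 17.1, 16.8, 18.8, 15.4 and 16.3 CPM with cetuximab on days 1 to 5. All treated libraries lay below all PBS libraries (log2 fold change -0.45, SE 0.071, adjusted p = 0.00148, edgeR). In SCC1 it measured 14.6, 17.1, 16.9, 19.7 and 20.3 CPM with PBS and 13.7, 15.4, 13.3, 13.5 and 14.4 with cetuximab. Here the groups overlapped through the PBS library of day 1, yet treated was below untreated on 5 of 5 days (log2 fold change -0.32, SE 0.089, adjusted p = 0.0118, edgeR). With flow cell as a covariate the log2 fold change of ELOVL6 was -0.51 in SCC1. There it rests on a single PBS library, that of day 5, at 20.3 CPM. In SCC25 it was -0.44, resting on the treated libraries of days 1 and 2, which shared flow cell A with PBS.

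**Figure D3:**
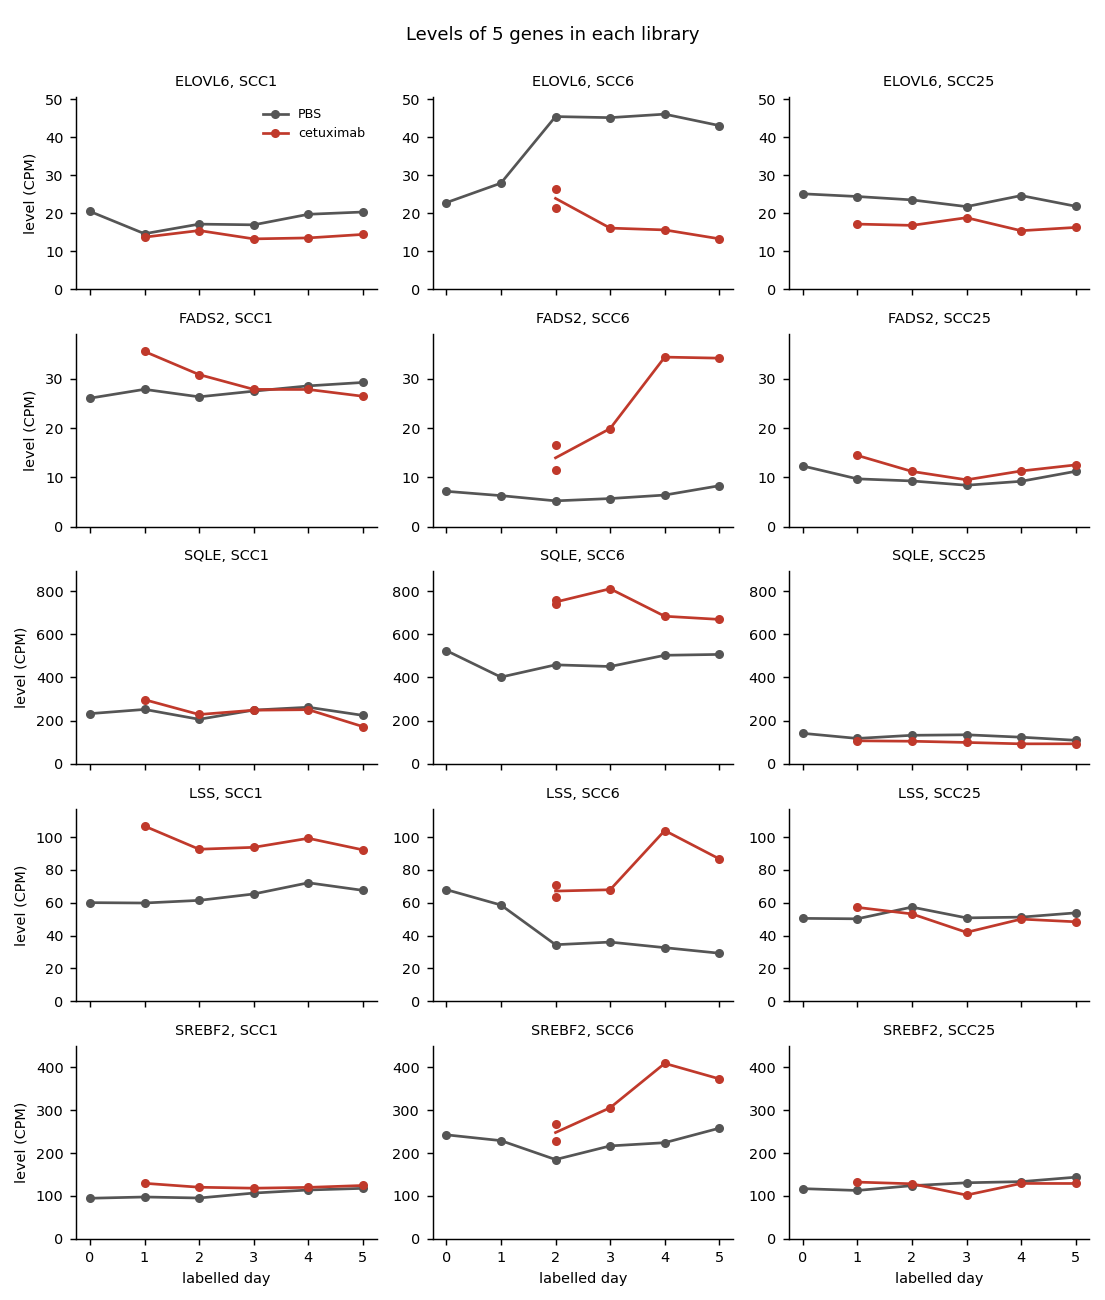
CPM of ELOVL6, FADS2, SQLE, LSS and SREBF2 by labelled day in SCC1, SCC6 and SCC25, with PBS in grey and cetuximab in red. Each point is 1 library, and in SCC6 both treated libraries labelled day 2 are shown with the line through their mean. The red ELOVL6 points lie below the grey ones on every matched day, and FADS2 separates in SCC6, where it reaches 34.4 CPM.

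Among the mevalonate steps, 2 of 7 rose in SCC1, 4 of 7 rose in SCC6 and 1 of 7 fell in SCC25. Over all genes, 22.7% rose in SCC1, 15.6% rose in SCC6 and 9.5% fell in SCC25. Neither these steps nor the other roles were tested as sets. HMGCS1, which condenses acetoacetyl-CoA into HMG-CoA, rose in SCC6, with 352 ± 86.2 CPM with PBS and 570.2 ± 55.1 CPM with cetuximab (log2 fold change 0.67 ± 0.16, SE), with no overlap. In SCC1 it rose by 0.54 ± 0.14, with a range of 104 to 146 CPM with PBS and 127 to 243 CPM with cetuximab, so that the groups overlapped. In SCC25 its means were 109 and 111 CPM. MVK (mevalonate kinase) rose in SCC1 by 0.42 ± 0.075 and in SCC6 by 0.69 ± 0.15, without overlap in either line.

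The other 2 mevalonate genes that rose in SCC6 were MVD (mevalonate diphosphate decarboxylase), by 0.81 ± 0.22, and ACAT2 (cytosolic acetoacetyl-CoA thiolase), by 0.76 ± 0.11. ACAT2 ran at 31.2 to 46.2 CPM with PBS and 58.5 to 73.8 CPM with cetuximab. MVD overlapped through the PBS library of day 1, and its call ended without the PBS library of day 2 (adjusted p = 0.0522). FDPS, which makes farnesyl diphosphate, fell in SCC25 by 0.18 on the log2 scale (69.6 to 82.6 CPM with PBS and 64.3 to 68.1 CPM with cetuximab) and the groups were apart, but 8 of the 10 single libraries ended its call when left out. These were the PBS libraries of days 1 to 3 and all cetuximab libraries (adjusted p from 0.0514 to 0.104 by edgeR). PMVK and IDI1 (isopentenyl diphosphate isomerase) passed edgeR's test without covariates in no line. IDI1 was called higher in SCC6 with the GC trend removed (0.23), with means of 142 and 157 CPM in SCC6.

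Of the squalene and sterol steps, 4 of 11 rose in SCC1 (against 22.7% of all genes), 3 of 11 rose in SCC6 (15.6%) and 2 of 11 fell in SCC25 (9.5%). LSS, lanosterol synthase, rose in SCC1 and SCC6, and its daily values were chosen for display after they were seen. In SCC1 they were 59.9, 61.5, 65.4, 72.2 and 67.6 CPM with PBS and 107, 92.6, 93.8, 99.3 and 92.2 CPM with cetuximab. No treated library fell within the PBS range (log2 fold change 0.59, SE 0.061, adjusted p = 1.2e-05, edgeR). In SCC6 LSS measured 58.6, 34.4, 36.0, 32.6 and 29.3 CPM with PBS and 63.7, 70.6, 67.9, 104 and 86.7 with cetuximab. The groups were again apart, with the PBS library of day 1 well above the later ones (log2 fold change 1.01, SE 0.20, adjusted p = 0.00281, edgeR). In SCC25 the ranges were 50.2 to 57.4 CPM with PBS and 42.0 to 57.2 CPM with cetuximab and overlapped.

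SQLE and DHCR7 rose in SCC6 and fell in SCC25. SQLE in SCC6 stood at 402, 458, 451, 503 and 507 CPM with PBS and 760.2, 738, 810.4, 683 and 669 CPM with cetuximab, with no overlap (log2 fold change 0.63, SE 0.091, adjusted p = 0.000442, edgeR). In SCC25 it stood at 118, 132, 135, 124 and 109 CPM with PBS and 107, 105, 99.3, 92.9 and 93.2 CPM with cetuximab. The treated libraries lay just below the lowest PBS library, that of day 5 (log2 fold change -0.30, SE 0.069, adjusted p = 0.0108, edgeR). In SCC1 SQLE measured 252, 206, 249, 262 and 225 CPM with PBS and 297, 229, 249, 251 and 173 with cetuximab. The groups overlapped, the treated library of day 1 lying above the PBS range and that of day 5 below it.

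DHCR7 (7-dehydrocholesterol reductase) in SCC6 measured 91.4, 83.3, 99.6, 91.4 and 95.9 CPM with PBS and 106, 118, 131, 175 and 155 with cetuximab, where the libraries of days 4 and 5 were the highest (log2 fold change 0.54, SE 0.13, adjusted p = 0.00823, edgeR). In SCC25 it measured 141, 155, 152, 146 and 152 CPM with PBS and 129, 121, 96.3, 126 and 128 with cetuximab. All treated values were lower, that of day 3 standing apart (log2 fold change -0.30, SE 0.075, adjusted p = 0.0162, edgeR). In SCC1 the values were 126, 119, 147, 154 and 146 CPM with PBS and 167, 148, 146, 153 and 133 with cetuximab and overlapped. With flow cell as a covariate, neither gene was called in SCC25 (SQLE -0.21, DHCR7 -0.24). In SCC6 both kept their calls.

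TM7SF2, a sterol reductase at a low level, rose in SCC1 by 0.61 ± 0.14 (2.83 to 3.82 CPM with PBS and 3.56 to 5.67 CPM with cetuximab). MSMO1 (sterol methyl oxidase) and SC5D (sterol desaturase) also rose there, by 0.33 ± 0.11 and 0.24 ± 0.077, with overlapping groups. MSMO1 lost its call without PBS of day 1, 2 or 3 or cetuximab of day 1, 3 or 4 (adjusted p from 0.0516 to 0.0748), and SC5D without PBS of day 1 or 2 or cetuximab of day 3 or 4 (0.0592 to 0.0787). FDFT1 (squalene synthase) had means of 164 and 211 CPM in SCC6 (adjusted p = 0.0719, edgeR), and was called there with day as a block or flow cell as a covariate. CYP51A1, NSDHL (a sterol dehydrogenase), HSD17B7 and EBP (sterol isomerase) passed edgeR's test without covariates in no line. Under other settings EBP was called higher in SCC6 by DESeq2 (0.24) and with day as a block, and HSD17B7 there with flow cell as a covariate (0.33) and within flow cell D. With the GC trend removed, CYP51A1 was called higher in SCC6 (0.22) and lower in SCC25 (-0.16), and with the block as well NSDHL was called lower in SCC25 (-0.12). NSDHL, for example, had means of 38.3 and 36.6 CPM in SCC1 and 32.0 and 31.4 CPM in SCC6.

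Of the 4 regulators and transport genes, 2 rose in SCC1, 3 in SCC6 and 0 in SCC25, against 22.7%, 15.6% and 8.8% of all genes. In SCC25 edgeR and DESeq2 called none of the 4 and none had an unadjusted p under 0.05. SREBF2, which encodes the SREBP that mainly drives cholesterol genes, measured 97.2, 94.8, 106, 114 and 117 CPM with PBS and 129, 120.0, 118, 119.6 and 124 with cetuximab in SCC1. Each treated library exceeded each PBS library, if narrowly (log2 fold change 0.22, SE 0.062, adjusted p = 0.0101, edgeR). In SCC6 it measured 229, 185, 217, 224 and 258 CPM with PBS and 228, 268, 306, 409.6 and 373 CPM with cetuximab. Library 2a fell inside the PBS range and those of days 4 and 5, on their own flow cell E, were the highest (log2 fold change 0.48, SE 0.15, adjusted p = 0.0314, edgeR). The SCC6 call ended without PBS of day 2, 3 or 4 or cetuximab of day 3, 4 or 5 (adjusted p from 0.0554 to 0.0945). That call was also lost with the GC trend removed and, as given above, with flow cell as a covariate. In SCC25 it measured 112, 124, 130.4, 133 and 143 CPM with PBS and 132, 128, 102, 129 and 129 CPM with cetuximab, overlapping in all but the library of day 3.

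SREBF1, which encodes the SREBP that mainly drives fatty acid genes, was called in no line without the block of day and, as given above, higher with it in SCC1 and SCC6. It measured 26.8, 29.8, 34.5, 45.6 and 37.7 CPM with PBS and 30.4, 34.9, 41.1, 45.3 and 49.3 CPM with cetuximab in SCC1 (log2 fold change 0.22, SE 0.15, adjusted p = 0.245, edgeR). There SREBF1 climbed over the days with the drug and, up to day 4, with PBS. Its PBS slope over days 0 to 5 was 0.14 ± 0.033 log2 units per day (SE, adjusted p = 0.0559, edgeR). In SCC6 the values were 64.3, 30.3, 32.5, 45.2 and 43.0 CPM with PBS and 31.9, 34.2, 37.1, 80.3 and 61.0 CPM with cetuximab (log2 fold change 0.16, SE 0.28, adjusted p = 0.71, edgeR). Both groups were spread widely, PBS being highest on day 1 and cetuximab on day 4. In SCC25 they were 47.4, 54.7, 57.7, 65.5 and 92.0 CPM with PBS and 70.9, 71.0, 32.8, 57.2 and 66.7 CPM with cetuximab (log2 fold change -0.078, SE 0.21, adjusted p = 0.834, edgeR). PBS was highest on day 5 and cetuximab lowest on day 3. Without cetuximab of day 4 the SCC6 value turned to -0.093, and without PBS of day 5 or cetuximab of day 3 the SCC25 value turned to 0.11 or 0.082. The direction of SREBF1 in SCC6 and SCC25, and of SREBF2 in SCC25, also turned with flow cell as a covariate and with the GC trend removed.

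INSIG1 measured 51.0, 35.0, 53.8, 66.3 and 52.7 CPM with PBS and 84.8, 53.6, 73.0, 84.7 and 53.8 with cetuximab in SCC1. It was higher with the drug on 5 of 5 days, the groups overlapping (log2 fold change 0.45, SE 0.17, adjusted p = 0.0435, edgeR). In SCC6 it measured 64.8, 94.8, 101, 129 and 161 CPM with PBS and 159, 191, 188, 178 and 169 with cetuximab. PBS climbed with the days and reached the treated range on day 5 (log2 fold change 0.66, SE 0.19, adjusted p = 0.0217, edgeR). In SCC25 it measured 23.9, 25.1, 29.3, 24.9 and 23.2 CPM with PBS and 26.4, 26.2, 25.3, 27.9 and 26.8 with cetuximab, overlapping (log2 fold change 0.079, SE 0.069, adjusted p = 0.463, edgeR). The SCC1 call ended without PBS of day 1, 2, 3 or 5 or cetuximab of day 1, 3 or 4 (adjusted p from 0.0693 to 0.12), and the SCC6 call without PBS of day 2 or 3 (0.0574 to 0.0628). With the GC trend removed the SCC1 call was also lost. STARD4 rose in SCC6, with 13.5 to 29.6 CPM with PBS and 35.9 to 60.1 CPM with cetuximab (log2 fold change 0.94, SE 0.20, adjusted p = 0.00480, edgeR), with no overlap. In SCC1 its range was 47.5 to 85.8 CPM with PBS and 44.8 to 61.0 CPM with cetuximab.

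In the fatty acid steps, 3 of 9 rose and 1 fell in SCC1, 3 rose and 2 fell in SCC6, and 3 fell in SCC25. Over all genes, 22.7% rose and 22.1% fell in SCC1, 15.6% rose and 14.6% fell in SCC6, and 9.5% fell in SCC25. FADS2, the desaturase that opens the polyunsaturated route, moved most of all members, and its values are shown because of that. In SCC6 it measured 6.30, 5.23, 5.70, 6.41 and 8.31 CPM with PBS and 11.4, 16.5, 19.9, 34.4 and 34.2 with cetuximab. The lowest treated library exceeded the highest PBS library and days 4 and 5 were highest (log2 fold change 1.84, SE 0.28, adjusted p = 0.000701, edgeR). In SCC1 and SCC25 the ranges overlapped, at 26.4 to 29.3 CPM with PBS and 26.5 to 35.6 CPM with cetuximab in SCC1 and 8.41 to 11.2 CPM with PBS and 9.51 to 14.5 CPM with cetuximab in SCC25. FADS1, the neighbouring desaturase, rose in SCC6 by 0.43 ± 0.13 with overlapping groups, a call that ended without PBS of day 2 or 3 or cetuximab of day 3, 4 or 5 (adjusted p from 0.0551 to 0.0881).

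SCD, which places the first double bond in saturated chains, rose in SCC1 by 0.52 ± 0.14 (386 to 730.5 CPM with PBS and 664 to 848 CPM with cetuximab) and in SCC6 by 0.44 ± 0.15 (349 to 649 CPM with PBS and 583 to 747 CPM with cetuximab). In SCC1 its value was 0.058 with flow cell as a covariate and 0.042 within flow cell C, and the call was lost in both. In both lines the groups overlapped, and the SCC6 call ended when 1 of 8 libraries was left out, any but PBS of day 5 and cetuximab 2a (adjusted p from 0.054 to 0.115). In SCC1 ACSL3, an acyl-CoA synthetase of lipid droplets, rose by 0.44 ± 0.079 without overlap (130.2 to 183 CPM with PBS and 197 to 229 CPM with cetuximab). ACACA (acetyl-CoA carboxylase, which makes malonyl-CoA) rose there by 0.37 ± 0.098, with an overlap and with a value near 0 under flow cell as a covariate (-0.0013).

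LPIN1, a phosphatidate phosphatase, fell in SCC6 by 0.41 on the log2 scale (40.0 to 62.5 CPM with PBS and 35.4 to 45.2 CPM with cetuximab), with overlap. Its call ended without PBS of day 3 or 5 or cetuximab 2b or of day 5 (adjusted p from 0.0507 to 0.0799), and without both libraries labelled day 2. In SCC25, FASN (fatty acid synthase) fell, with 141 to 176 CPM with PBS and 60.0 to 129.5 CPM with cetuximab (log2 fold change -0.62, SE 0.16, adjusted p = 0.0226, edgeR). ACLY fell there by 0.18 on the log2 scale (193 to 214 CPM with PBS and 169 to 181 CPM with cetuximab), both without overlap. FASN lost its call without PBS of day 2 or cetuximab of day 4 or 5 (adjusted p from 0.052 to 0.0569), and ACLY without PBS of day 3 or cetuximab of day 5 (0.0554 to 0.0594). Without cetuximab of day 5, 3 members were called in SCC25 in place of 6.

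**Figure D4:**
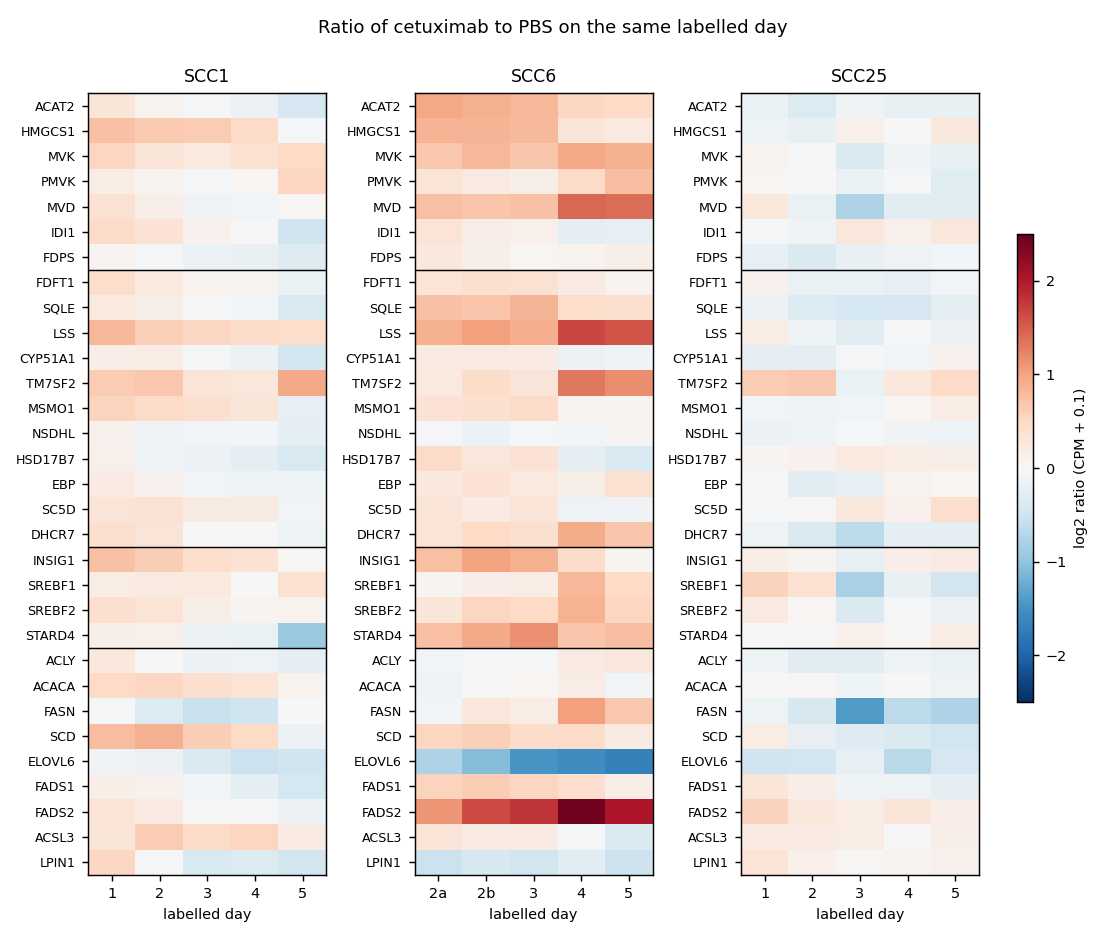
Log2 ratio of cetuximab to PBS for each of the 31 genes on each labelled day in SCC1, SCC6 (both libraries labelled day 2 against PBS of day 2) and SCC25, with 0.1 CPM added to both. Colour runs from -2.5 (blue, lower with cetuximab) to 2.5 (red, higher). ELOVL6 is blue in every column and FADS2 is red in every SCC6 column.

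In the plot of daily ratios, both SCC6 columns of day 2 share the PBS library of that day.

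Over the 3 lines together, with line as a covariate, 11 members rose (against 22.3% of all 21414 genes tested) and 1 fell (against 19.1%). The largest average rise was that of FADS2 (0.73 ± 0.18, SE), then TM7SF2 (0.58), LSS (0.52), HMGCS1 (0.42), INSIG1 (0.40) and MVK (0.34). SCD, ACSL3, MSMO1, SREBF2 and SC5D rose by 0.21 to 0.25. ELOVL6 was the gene that fell (-0.65 ± 0.11). With flow cell as a covariate, 8 members were called, for which the share of all genes is not given here.

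Whether the change differed between lines was tested by the line-by-treatment terms. It differed for 16 of 31 members (51.6%, against 26.1% of all 21414 genes), and for 9 with flow cell as a covariate. Those 9 were LSS, STARD4, ACAT2, SQLE, FADS2, DHCR7, ELOVL6, MVD and HMGCS1. The share of all genes called with that covariate is not given here. By sign alone, the change of 15 of the 16 was more positive in SCC6 than in SCC25, and ELOVL6 was the exception. For ACACA, among the 15, that difference was only 0.053 ± 0.11 (SE, adjusted p = 0.806, edgeR). The share of all genes with that sign is not given here.

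For 10 of the 16 the largest of the 3 pairwise differences was that between SCC6 and SCC25. The change of LSS was greater in SCC6 by 1.09 ± 0.19 (log2, SE), that of MVD by 1.02 ± 0.24, ACAT2 by 0.96 ± 0.15 and SQLE by 0.95 ± 0.14. FASN differed by 0.92 ± 0.28, DHCR7 by 0.86 ± 0.14, MVK by 0.81 ± 0.16 and HMGCS1 by 0.64 ± 0.20. SREBF2 differed by 0.54 ± 0.16 and FDPS by 0.28 ± 0.089. Without cetuximab of day 4 in SCC6 these pairwise differences no longer passed for SREBF2 (adjusted p = 0.0511), FDPS and FASN. FDPS also failed without PBS of day 2 in SCC6 or in SCC25 (0.0522 to 0.0649 over the 3 libraries), and FASN without cetuximab of day 5 in SCC6 (0.0552 to 0.0781 over both). HMGCS1 failed without PBS of day 2 in SCC6 or cetuximab of day 2 in SCC25 (0.0507 to 0.0513).

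SCC1 and SCC6 differed most in FADS2, whose change was lower in SCC1 (-1.76 ± 0.27), and in STARD4 (-1.16 ± 0.23). FADS1 also changed less in SCC1 (-0.52 ± 0.15), and ELOVL6 fell less there (0.85 ± 0.20). SCD and ACACA differed most between SCC1 and SCC25, by 0.72 ± 0.20 and 0.39 ± 0.11. The ACACA difference no longer passed when 1 of 10 libraries was left out, PBS of days 1 to 3 or cetuximab of day 4 or 5 in SCC1 and PBS of days 3 to 5 or cetuximab of day 2 or 5 in SCC25 (adjusted p from 0.0511 to 0.0692). INSIG1, called in SCC1 and SCC6 but not SCC25, did not pass the test of a difference (adjusted p = 0.149, edgeR).

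Whether the change shifted from days 1 to 3 to days 4 and 5 was tested in each line. By edgeR 0 members passed in SCC1, SCC6 and SCC25, and 0 of all genes did (background 0%). Unadjusted p-values under 0.05 were found for 3, 15 and 1 members, against 7.42%, 29.4% and 2.89% of all genes. DESeq2 called 0, 8 and 0 members, and 9 were called in SCC6 with day as a block, or 0 once the GC trend was removed as well. Without PBS of day 1 in SCC6, 4 were called, and without PBS of day 3, 1. Over the SCC6 fits with 1 library left out, 0 to 1424 of all genes were called. For DESeq2 and the block the share of all genes is not given here, so these counts cannot be read as particular to the members. Late SCC6 treated libraries were on flow cell E alone, so period and flow cell cannot be told apart there. Levels also sloped with GC content, relative to the mean of the SCC6 libraries of days 1 to 5. The slope was 0.367 and 0.214 log2 units per 10% GC for cetuximab of days 4 and 5, and 0.281 for PBS of day 1. For the other SCC6 libraries it ran from -0.231 to -0.021.

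The SCC6 values are therefore given side by side as a description, for genes with an unadjusted p under 0.05. Treated SCC6 has no library labelled day 1, so its early value sets libraries 2a, 2b and day 3 against PBS libraries that include day 1, on flow cell C, where LSS, MVD and FASN stood far from the other days. The log2 change of HMGCS1 was 0.96 ± 0.15 on days 1 to 3 and 0.26 ± 0.18 on days 4 and 5, and that of INSIG1 1.00 ± 0.15 on days 1 to 3 and 0.24 ± 0.18 on days 4 and 5. LSS had 0.59 ± 0.19 on days 1 to 3 and 1.61 ± 0.24 on days 4 and 5, MVD 0.34 ± 0.22 on days 1 to 3 and 1.41 ± 0.27 on days 4 and 5 and FADS2 1.42 ± 0.20 on days 1 to 3 and 2.21 ± 0.24 on days 4 and 5. FASN had -0.22 ± 0.21 on days 1 to 3 and 0.85 ± 0.26 on days 4 and 5, and SREBF1 -0.36 ± 0.26 on days 1 to 3 and 0.67 ± 0.31 on days 4 and 5. For the other members with such a p, late minus early was 1.13 (TM7SF2), 0.48 (DHCR7) and 0.38 (ACLY). It was -0.78 for HSD17B7, -0.55 for IDI1, -0.54 for ACSL3, -0.44 for ACAT2 and -0.37 for SQLE. Of all members with such a p, those larger late had 52.0% (ACLY) to 65.5% GC (MVD). Those smaller late had 37.4% (ACSL3) to 46.9% (HSD17B7). The cause of this split was not tested. Against PBS of the same day, the log2 ratios of libraries 2a, 2b and day 3 were 0.88, 1.03 and 0.91 for LSS, 0.75, 0.70 and 0.74 for MVD, -0.076, 0.29 and 0.19 for FASN and 0.072, 0.17 and 0.19 for SREBF1. On days 4 and 5 they were 1.67 and 1.56 for LSS, 1.44 and 1.39 for MVD, 1.03 and 0.67 for FASN and 0.83 and 0.50 for SREBF1. By these ratios SREBF1 was above PBS in 5 of 5 treated libraries and FASN in all but 2a.

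With PBS alone, the trend over days 0 to 5 was called for 1 of 31 members in SCC1 (background 3.22% of 16315 genes), 15 in SCC6 (38.3% of 14960) and 4 in SCC25 (13.4% of 17261). In SCC25 SREBF1 rose by 0.17 ± 0.027 log2 units per day (SE, adjusted p = 0.00101, edgeR), from 50.1, 47.4, 54.7, 57.7, 65.5 and 92.0 CPM on days 0 to 5. FASN rose by 0.079 ± 0.020 and SREBF2 by 0.065 ± 0.017 per day, while HMGCS1 fell by 0.080. The count of 4 became 1 without PBS of day 5 and 2 without PBS of day 1. In SCC1 ACACA rose by 0.11 ± 0.023 per day, a call that any of days 0, 1, 2, 3 or 4 ended when left out, whereas leaving out day 5 gave 5 calls.

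In SCC6 11 members rose and 4 fell over the days with PBS. INSIG1 (0.18 ± 0.044 per day), ELOVL6 (0.18 ± 0.052) and STARD4 (0.17 ± 0.047) rose the most, with MSMO1, SC5D, SCD, HMGCS1, ACSL3, FDFT1, FADS1 and LPIN1 between 0.11 and 0.16. LSS (-0.26 ± 0.041), MVD (-0.23 ± 0.051), PMVK (-0.21 ± 0.053) and ACLY (-0.10 ± 0.024) fell. Days 0 and 1 were on flow cell C and days 2 to 5 on D, and with flow cell as a covariate 3 members were called, SCD, FADS1 and SREBF1, whose slope turned from -0.10, not called, to 0.21 per day (adjusted p = 0.0264, edgeR), while ELOVL6 had a slope of 0.0084. Without PBS of day 5, 7 were called.

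Genes around both routes were read from lists of related genes, and no test of a list as a whole is given here. As background, edgeR called 22.7% (SCC1), 15.6% (SCC6) and 8.8% (SCC25) of all genes higher with cetuximab. Calls of lower genes made up 22.1%, 14.6% and 9.5%, with the lines in the same order. A count near these shares need not be particular to its list. Of 11 genes of SREBP processing, MBTPS1, the protease that makes the first cut in SREBPs, rose in all 3 lines, by 0.23, 0.26 and 0.20. INSIG2, the second INSIG, fell in SCC6 (-0.50) and rose in SCC25 (0.25). NFYA, a subunit of NF-Y, fell in SCC1 (-0.27).

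Of 8 genes of sterol uptake, traffic and storage, 3 rose and 3 fell in SCC1, 1 rose in SCC6, and 1 rose and 2 fell in SCC25. SCARB1, a receptor for high-density lipoprotein, rose in SCC1 (0.83) and fell in SCC25 (-0.34). LIPA, the lysosomal lipase that frees cholesterol, rose in both (0.42 and 0.37). NPC1, which exports cholesterol from lysosomes, fell in SCC1 (-0.70), its partner NPC2 rose in SCC6 (0.53), and TMEM97 fell in SCC25 (-0.31). Of 6 genes of the LXR sterol sensor and its targets, 2 rose in SCC1, the receptor NR1H3 (0.58) and LPCAT3, which remodels phospholipids (0.26). In SCC6 and SCC25 edgeR called 0 of them, with 0 and 1 at an unadjusted p under 0.05, and the list was not read from DESeq2. PDSS1, which builds the ubiquinone side chain, fell in all 3 lines (-0.71, -0.81 and -0.23), within an isoprenoid list of 9 genes of which 1 rose in SCC1.

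Of 15 further fatty acid genes, 4 rose and 3 fell in SCC1, 4 rose and 4 fell in SCC6, and 5 rose and 1 fell in SCC25. SCD5, a second stearoyl-CoA desaturase, rose in all 3 lines (1.28, 0.38 and 0.58), and FADS3, a relative of both desaturases, in SCC1 (1.01) and SCC6 (1.51). Of the acyl-CoA synthetases in the list, ACSL1 rose in SCC1 (1.02) and SCC25 (0.39), ACSL4 fell in SCC1 (-0.77), and ACSL5 fell in SCC6 (-2.03) and rose in SCC25 (0.25). The elongase ELOVL7 rose in SCC25 (0.68), and ACACB, the mitochondrial acetyl-CoA carboxylase, rose in SCC6 (0.79).

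Of 7 genes of glycerolipid synthesis and droplets, PLIN2, a lipid droplet coat protein, fell in SCC1 (-0.65) and SCC6 (-1.16). No other gene of that list was called. Of 8 genes of fatty acid oxidation, 6 rose and 2 fell in SCC1, 1 rose in SCC6 and 2 rose in SCC25. PPARA, a receptor that switches on oxidation, rose in all 3 lines (0.34, 1.22 and 0.33), and CPT2 in SCC1 (0.41) and SCC25 (0.26). Of 8 proliferation genes, 4 fell in SCC1, 1 in SCC6 and 4 in SCC25, and none rose. The part of these falls in the changes of lipid genes was not tested.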

How the data were processed

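RNA from 33 libraries was sequenced by the authors, who inferred transcript levels with Salmon (version 0.8.2 and genome build hg19 in the submitters' processing notes) and imported them with tximport. The annotation release is not given in the sources used here. The deposited unit is estimated counts per symbol, not normalised between libraries, and of the values above 0, 29.2% are whole numbers. Nothing was found in any library for 11814 symbols. Depth ranged from 36337093 to 47225163 counts with PBS and 37140248 to 41059275 with cetuximab in SCC1, 28508758 to 40302162 and 33726089 to 80727478 in SCC6, and 42018632 to 52144493 and 37242988 to 47043580 in SCC25 on days 1 to 5, and it limits what can be detected for low genes.

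After rounding, the main tool was edgeR (version 4.0.16, under R 4.3.3; filterByExpr, TMM, quasi-likelihood F test, two-sided, Benjamini-Hochberg adjustment over all genes tested, threshold 0.05), with limma (3.58.1), data.table (1.17.8) and, as an alternative, DESeq2 (1.42.0). Members were read from fits of the whole table. Each line was fitted alone for the treatment (5 libraries per treatment), the 30 libraries of days 1 to 5 together for line differences, and PBS of days 0 to 5 for the culture trend. A pseudocount of 0.1 CPM entered single-library ratios. Transcript length and GC came from GENCODE on GRCh37 by symbol. Scripts were tested on simulated data.

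The labels give a shared day, which pairs the libraries. Deviations from the treatment means, correlated over genes between libraries of 1 day, gave r = 0.40, 0.379, 0.142, 0.199 and 0.125 for SCC1 (days 1 to 5) and 0.241, 0.564, 0.532, 0.525 and 0.599 for SCC25. For SCC6, r was 0.57 (2a), 0.536 (2b), 0.597, -0.202 and 0.0 (days 3 to 5). In the blocked fit 2a and 2b shared day 2 with 1 PBS library. Alternatives were DESeq2, its size factors, no filter, flow cell as a covariate, the block, a GC trend removed, day 0 added, and each library left out; single flow cells and the removal of 2a and 2b were added after the data were seen.

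The members and lists were chosen with earlier results of these data known, and the promoters shown and the motifs after motif counts were seen. Members past the threshold are named by role and size of change; daily values are given for genes called in 3 lines or in opposite directions and for SREBF1, SREBF2 and INSIG1, and otherwise where stated; from each related list at most 3 called genes per line are named, and 1 result of these lists is not reported here.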

Additional observations from a re-analysis of the deposited data

Results flagged for a closer look

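Of 186 groups of 5 libraries (31 members in 6 groups), 15 held a library far from the other 4 by Dixon's criterion; chance flags about 1 in 20 groups. Of these, 6 were the PBS library of day 1 in SCC6, which was on another flow cell than the later PBS libraries. It stood at 34.9 CPM for MVD, 106 for IDI1, 58.6 for LSS, 95.2 for CYP51A1, 508 for FASN and 27.9 for ELOVL6. Its slope with GC content was 0.281, on the scale given above. The PBS library of day 5 in SCC6 stood apart for NSDHL (27.2 CPM). In SCC25 with cetuximab, the library of day 3 stood apart for DHCR7 (96.3 CPM) and SREBF2 (102), day 4 for ACACA (102), day 1 for SCD (291) and day 2 for LPIN1 (19.2). The GC slope of that day 3 library, against the SCC25 mean, was -0.313. In SCC1, TM7SF2 stood apart with PBS on day 4 (3.82 CPM), HSD17B7 with PBS on day 2 (15.5) and EBP with cetuximab on day 1 (73.3).

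The change with cetuximab differed between lines, by the line-by-treatment test, for 16 members. Between SCC6 and SCC25 the differences of log2 change were 1.09 for LSS, 1.02 for MVD, 0.96 for ACAT2, 0.95 for SQLE, 0.92 for FASN, 0.86 for DHCR7, 0.81 for MVK, 0.64 for HMGCS1, 0.54 for SREBF2 and 0.28 for FDPS. SCC1 minus SCC6 gave -1.76 for FADS2, -1.16 for STARD4, -0.52 for FADS1 and 0.85 for ELOVL6. SCC1 minus SCC25 gave 0.72 for SCD and 0.39 for ACACA.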

How the results depend on the processing

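The 12, 15 and 6 members called in SCC1, SCC6 and SCC25 were 13, 16 and 8 by DESeq2, and 9 to 14, 10 to 16 and 3 to 7 with 1 library left out. With flow cell as a covariate they were 4, 14 and 1, and within 1 flow cell 3 (C), 14 (D) and 3 (A). With day as a block they were 14, 20 and 9, and with the block and the GC trend removed 14, 22 and 12. Paired in this way, the change differed between lines for 21 members with or without the GC correction, in place of 16, and over the lines 11 were called, or 15 with the GC correction. By period the block gave 0 in SCC1 and SCC25 and 9 in SCC6, or 0 with the GC correction. Line differences numbered 9 with flow cell as a covariate and 12 to 20 with 1 library left out. Shares of all genes are not given beside these counts or those of the next paragraph, so a higher or lower count need not be particular to the members. In SCC1, the fits with flow cell as a covariate and within flow cell C both rest on the PBS library of day 5.

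The culture trend in SCC1 counted 2 members without a filter, 5 with flow cell as a covariate, 5 with the GC trend removed, 6 by DESeq2 and 0 to 5 with 1 library left out. In SCC6 it counted 3 with flow cell as a covariate and 7 to 20 with 1 library left out, and in SCC25 1 to 5. By period, SCC1 had 1 without a filter, SCC6 had 8 without a filter, 8 by DESeq2 and 0 to 4 with 1 library left out, and SCC25 had 1 with flow cell as a covariate. For period in SCC6 and the trend in SCC25, flow cell as a covariate could not be fitted.

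ACACA in SCC1 turned to -0.0013 with flow cell as a covariate and -0.017 within flow cell C. SREBF1 in SCC6 turned to -0.16 with flow cell as a covariate, -0.14 within D, -0.20 with the GC trend removed, -0.15 with the block as well and ran from -0.093 to 0.35 without 1 library. SREBF1 in SCC25 turned to 0.17 with flow cell as a covariate and within A, 0.016 with the GC trend removed, 0.033 with the block as well, and ran from -0.16 to 0.11 without 1 library. SREBF2 in SCC25 turned to 0.029, 0.027, 0.014 and 0.017 in the same order, and ran from -0.080 to 0.025. The causes were not tested. Of 38 changes of single genes, 36 kept direction and call with day as a block, 33 with the GC trend removed and 18 with flow cell as a covariate. Depth limits the precision of genes at a low level, such as TM7SF2.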
